A study of Mus musculus with 6 samples.

Results

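PBAF is the form of the SWI/SNF chromatin remodeling complex that is marked by 4 subunits, PBRM1, ARID2, BRD7 and PHF10. Their genes, Pbrm1, Arid2, Brd7 and Phf10, are 4 of the 54232 genes in the deposited count table and were taken from it by symbol. Their mRNA was examined in primary muscle cells isolated from mouse oviducts, to ask how the transcripts of the other PBAF-specific subunits stood when Pbrm1 was deleted. Oviducts came from mated females aged 8 to 12 weeks on day 2 of pregnancy, and there were 3 WT and 3 Pbrm1 cKO libraries. The females of the cKO group carried floxed Pbrm1 alleles and a cre inserted at the progesterone receptor locus (PR-IRES-cre), and were compared with controls that the labels call WT, although a legend in the study's supplement names floxed mice. This cre is made in cells in which the progesterone receptor locus is active and is not particular to muscle. Whether each library stands for 1 female or for several pooled females is not given, so that p-values measure the spread between these libraries, which may be technical.

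SWI/SNF complexes use the energy of ATP to slide or evict nucleosomes and so open DNA to transcription factors. They exist in a canonical form (BAF), a non-canonical form and PBAF, which share an ATPase and some core subunits and differ in others. ARID2 is the scaffold on which the PBAF-specific module is built. PBRM1 carries an array of bromodomains that bind acetylated histones, BRD7 carries another bromodomain, and PHF10 carries PHD fingers, which read histone tails. ARID1A or ARID1B, BRD9 and the DPF proteins are the corresponding subunits of the other forms.

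Libraries held between 15390818 and 18947947 counts, so that 3 counts amount to 0.159 to 0.193 CPM (counts relative to the library size, which TMM factors adjust for composition), a limit for counting error only. All 4 members were counted at least 589 times in every library and passed the filter on low counts. All 9 smooth muscle markers examined, among them Acta2, Myh11 and Des, were detected in every library. Their summed level was 3475 to 3547 CPM in WT and 4249 to 4740 CPM in cKO, with 5 markers higher and 1 lower in cKO. Markers of other cells were present too, and their sums differed between the groups. Leukocyte markers summed to 702 to 754 CPM in WT and 1010 to 1087 CPM in cKO (7 of 10 higher, Cd3e and Cd79a at 5 counts or fewer in every library), and fibroblast markers to 3491 to 4075 and 4723 to 5151 CPM (4 of 7 higher, 1 lower). Epithelial markers summed to 920 to 1005 CPM in WT and 1043 to 1164 CPM in cKO (5 of 8 higher). Mesothelial markers summed to 155 to 162 and 123 to 128 CPM (2 of 4 lower). Endothelial markers summed to 330 to 347 and 263 to 272 CPM (1 of 6 higher, 1 lower). Of these, Kdr fell from 182 to 99.4 CPM on average and Vwf rose from 4.35 to 14.2 CPM, whereas the others did not pass the test. Mitochondrial genes took 7.95% to 8.24% of counts in WT and 6.88% to 7.81% in cKO, without overlap. The part of these shifts in the results below was not tested. In such bulk libraries, a change in the number of cells of a type and a change in RNA per cell cannot be told apart.

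Across the transcriptome, edgeR called 43.7% of 15376 tested genes at an adjusted p-value under 0.05, with 21.9% higher and 21.8% lower in cKO. Among the members, 2 of 4 were called, Pbrm1 and Brd7, both lower in cKO. With so large a background, 2 calls among 4 genes say nothing particular about the members as a group. All cKO libraries lay on 1 side of all WT libraries in 53.5% of tested genes, and in 3 of 4 members, Pbrm1, Arid2 and Brd7. The median log2 fold change (log2FC) was -0.13 over the members, which range from -1.94 to 0.10, and 0.0016 over all genes tested.

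Pbrm1 (ENSMUSG00000042323.17; GRCm38 chromosome 14 from 31019138 to 31121592 on the plus strand, 35 merged exons) is the targeted gene. Its counts were 2879, 3428 and 2940 in WT replicates 1, 2 and 3 and 773, 955 and 664 in cKO replicates 1, 2 and 3. The lowest WT library, at 170 CPM, was far above the highest cKO library, replicate 2 at 50.7 CPM. The cKO level was 26.0% of WT (log2FC -1.94, SE 0.064, edgeR adjusted p = 9.1e-11), with a 95% confidence interval from 23.7% to 28.7%. Counts were taken over all exons together, and reads from the deleted part of the gene were not separated from the rest. Pgr, the progesterone receptor gene at which the cre was inserted, was at 177, 173 and 171 CPM in WT against 160, 184 and 159 CPM in cKO. The Pgr ranges overlapped, and the difference did not pass the test (log2FC -0.05, 95% confidence interval -0.17 to 0.07, edgeR adjusted p = 0.508). In cKO replicate 2 the levels of both Pgr and Pbrm1 were the highest of the cKO group.

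Brd7 (ENSMUSG00000031660.13; chromosome 8, 88331039 to 88362194, minus strand, 17 merged exons) was the only other member that passed the test. The WT libraries held it at 47.3, 48.4 and 49.5 CPM. In the cKO libraries it was at 41.2, 43.3 and 37.9 CPM, each below every WT library. The mean fell from 48.4 ± 1.13 to 40.8 ± 2.74 CPM (SD, n = 3), or to 84.3% of WT (log2FC -0.24, SE 0.061, 95% confidence interval -0.38 to -0.11, edgeR adjusted p = 0.00554). The difference passed the test under each of the 14 alternatives, with adjusted p-values from 0.00126 to 0.0254. A larger change in either direction was found in 45.2% of the genes tested.

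Arid2 (ENSMUSG00000033237.19; chromosome 15, 96287518 to 96404992, plus strand, 21 merged exons) was at 74.8, 70.4 and 73.1 CPM in WT. The cKO libraries were at 79.4, 79.8 and 75.3 CPM, and the lowest of them, replicate 3, was just above the highest WT library, replicate 1. The difference did not pass the test (log2FC 0.10, SE 0.050, edgeR adjusted p = 0.105) and did not pass it under any of the 14 alternatives, where adjusted p-values ranged from 0.0625 to 0.320. The 95% confidence interval ran from 99.9% to 116% of WT. Judged by the spread between these libraries, which may be technical, the bounds leave room for a modest rise of the scaffold transcript and hardly any for a loss. They do not bound a change between animals or per cell.

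Phf10 (ENSMUSG00000023883.13; chromosome 17, 14945009 to 14961273, minus strand, 12 merged exons) was at 79.5, 75.2 and 78.1 CPM in WT against 76.6, 75.8 and 79.3 CPM in cKO. The groups overlapped almost entirely. Its mean was 77.6 ± 2.17 CPM in WT against 77.2 ± 1.86 CPM in cKO (SD, n = 3; log2FC -0.01, SE 0.048, edgeR adjusted p = 0.924), with a 95% confidence interval from 92.6% to 107% of WT. The sign of this value turned under 3 of 14 alternatives. Among tested genes, 98.2% changed by more than Phf10.

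**Figure D1:**
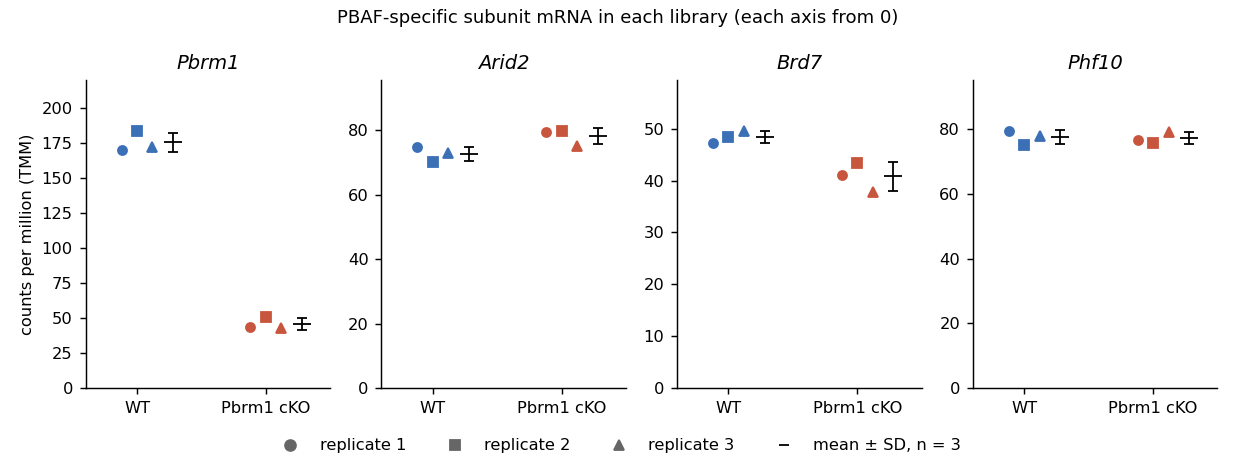
CPM of Pbrm1, Arid2, Brd7 and Phf10 in each of the 3 WT (blue) and 3 Pbrm1 cKO (red) libraries, with marker shapes for the replicate numbers and mean ± SD in black. Pbrm1 drops to between 42.7 and 50.7 CPM in cKO, Brd7 lies lower in all 3 cKO libraries, Arid2 lies slightly higher without passing the test, and Phf10 overlaps between the groups.

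Of the 4 members, 3 were found in RefSeq's table of start-site windows (GRCm38.p6), and the window of Pbrm1 is not shown because it lies across exons of Gnl3 and of Pbrm1 itself. For Brd7 and Phf10, the part of the window ahead of the outermost start annotated by GENCODE M21 or RefSeq is shown, to set the sequence ahead of the member that fell beside that of a member whose groups overlapped. Capitals mark GC boxes, GGGCGG on either strand, the letters known as a target of SP1-type factors; a match is a description of letters and not a binding site. The Brd7 stretch is chr8:88362253-88362422 and the Phf10 stretch is chr17:14961274-14961510, both read on the minus strand. They run from 250 to 81 and from 250 to 14 bases before the start site of their own window.
Brd7: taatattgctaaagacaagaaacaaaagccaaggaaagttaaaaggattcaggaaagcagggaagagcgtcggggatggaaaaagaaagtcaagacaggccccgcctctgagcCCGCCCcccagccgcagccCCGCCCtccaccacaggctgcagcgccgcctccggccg
Phf10: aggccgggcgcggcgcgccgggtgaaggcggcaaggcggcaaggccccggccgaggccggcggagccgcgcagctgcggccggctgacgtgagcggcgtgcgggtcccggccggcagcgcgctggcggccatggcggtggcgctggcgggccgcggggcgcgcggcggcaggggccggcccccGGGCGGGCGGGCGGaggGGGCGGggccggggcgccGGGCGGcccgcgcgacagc
The Brd7 stretch of 170 bases held 2 GC boxes and was 58.2% G or C, and 19.5% of the 32851 windows in the table held a GC box in the same stretch. The Phf10 stretch of 237 bases held 5, of which the first 3 overlap one another, and was 88.2% G or C, a share that 0.0274% of windows reached. For stretches of that length, 30.9% of windows held a GC box. No CCAAT box (CCAAT), E-box (CACGTG) or TATA box (TATAAA) was found on either strand of the Brd7 or the Phf10 stretch. These were held by 23.3%, 3.38% and 8.04% of windows over 170 bases, and by 32.8%, 5.57% and 12.0% over 237 bases. Bases between each stretch and the start site of its window were not searched, so boxes nearer to the start would be missed.

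Levels were compared between members per exon length, as TPM (counts divided by exon length and scaled to a common sum). In WT, the level of Pbrm1 was the highest at 62.7 ± 2.61 TPM, followed by Phf10 at 50.01 ± 1.34, Brd7 at 29.2 ± 0.721 and Arid2 at 21.4 ± 0.625 TPM (SD, n = 3). No neighbours in that order overlapped between libraries. In cKO the order became Phf10 at 49.0 ± 1.06, Brd7 at 24.2 ± 1.68, Arid2 at 22.7 ± 0.819 and Pbrm1 at 16.1 ± 1.52 TPM. Brd7, at 22.4 to 25.7 TPM, and Arid2, at 21.7 to 23.2 TPM, overlapped there. Pbrm1 thus went from the most to the least abundant of the 4 transcripts, and the ratio of Pbrm1 to Arid2 went from 2.76, 3.16 and 2.86 in WT to 0.664, 0.771 and 0.689 in cKO. On the log2 scale it fell by 2.05 (exact permutation test, two-sided, p = 0.1). With 3 libraries against 3, 0.1 is the smallest p this test can give, and it is 0.133 after adjustment over the 4 ratios tested. Pbrm1 is the deleted gene, so the fall of this ratio restates that of Pbrm1 and is no separate result.

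**Figure D2:**
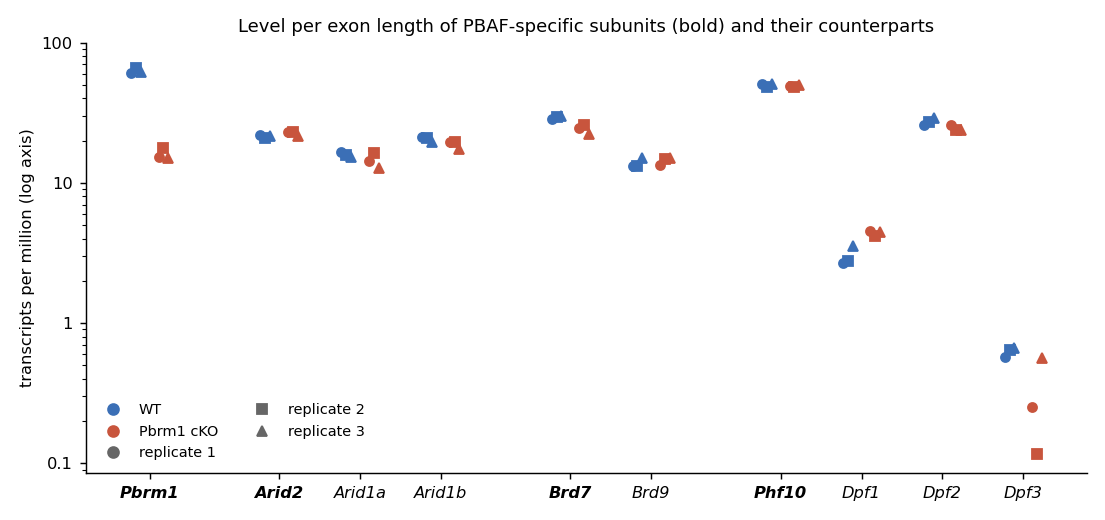
TPM (log axis) for each library, for the PBAF-specific subunits (bold) and the subunits that take their place in other SWI/SNF forms, WT in blue and Pbrm1 cKO in red. Pbrm1 is the highest of the 4 members in WT at 62.7 TPM and the lowest in cKO at 16.1 TPM, whereas Dpf3 stays under 1 TPM in every library.

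The members were next set beside their counterparts in BAF. Arid1a was at 16.0 ± 0.672 TPM in WT and 14.5 ± 1.81 TPM in cKO, and Arid1b at 20.6 ± 0.846 and 18.9 ± 1.15 TPM (SD, n = 3). Neither passed the test (log2FC -0.11 and -0.10, edgeR adjusted p = 0.253 and 0.162). The ratio of Arid2 to the sum of Arid1a and Arid1b was 0.579, 0.568 and 0.616 in WT and 0.683, 0.645 and 0.719 in cKO. All 3 cKO libraries lay above all 3 WT libraries, with a difference of 0.22 on the log2 scale (exact permutation test, two-sided, p = 0.1, adjusted p = 0.133), although none of the 3 genes in the ratio passed the test alone.

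Brd9, the bromodomain subunit of non-canonical BAF, was at 13.9 ± 1.07 TPM in WT and 14.5 ± 0.854 TPM in cKO (SD, n = 3; log2FC 0.08, edgeR adjusted p = 0.403). The ratio of Brd7 to Brd9 was 2.15, 2.20 and 1.98 in WT and 1.82, 1.74 and 1.48 in cKO. The groups did not overlap, and the log2 ratio fell by 0.33 (exact permutation test, two-sided, p = 0.1, adjusted p = 0.133).

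Among the counterparts of Phf10, Dpf2 had the highest level, at 27.2 ± 1.66 TPM in WT and 24.5 ± 1.07 TPM in cKO (SD, n = 3; log2FC -0.13, edgeR adjusted p = 0.0945). Dpf1, known from the neuronal form of BAF, rose from 2.99 ± 0.462 to 4.40 ± 0.195 TPM (SD, n = 3; log2FC 0.58, SE 0.13, edgeR adjusted p = 0.00285) and was called under each of the 14 alternatives. Dpf3, known from heart and skeletal muscle, was at 0.625 ± 0.0445 TPM in WT and 0.311 ± 0.231 TPM in cKO (SD, n = 3), and its difference did not pass the test (log2FC -1.03, SE 0.44, edgeR adjusted p = 0.0733). The ratio of Phf10 to the sum of Dpf1, Dpf2 and Dpf3 was 1.77, 1.596 and 1.52 in WT and 1.604, 1.71 and 1.72 in cKO. These overlapped (difference 0.05 on the log2 scale, exact permutation test, two-sided, p = 0.6, adjusted p = 0.6).

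**Figure D3:**
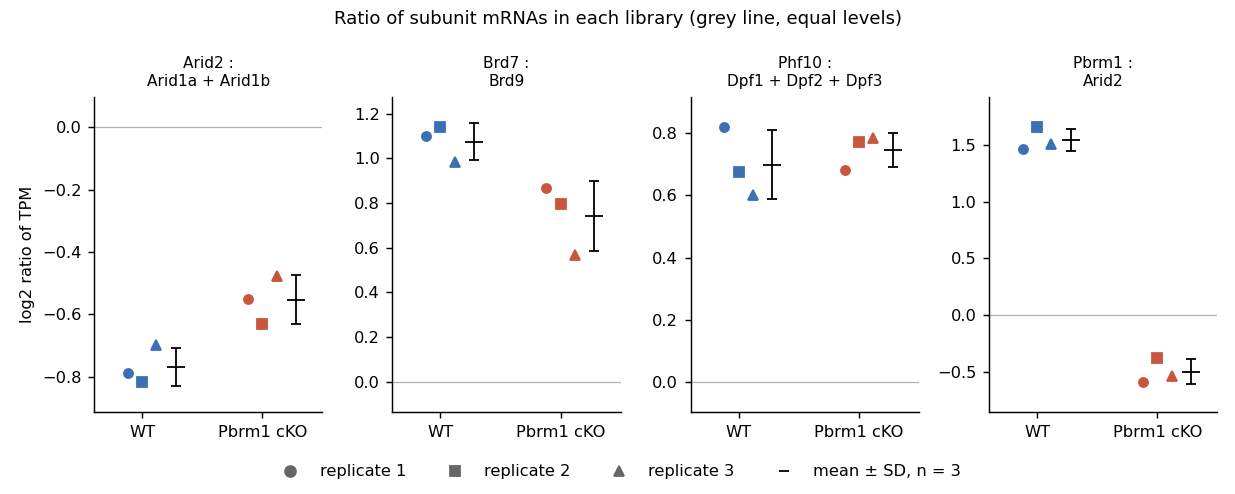
Log2 ratios of TPM in each library, with mean ± SD in black and equal levels as a grey line. The Arid2 ratio is higher and the Brd7 ratio lower in all 3 cKO libraries, the Phf10 ratio overlaps between the groups, and the ratio of Pbrm1 to Arid2 changes sign.

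Of the 24 other SWI/SNF subunits listed, 23 were tested. Actl6b, an actin-like subunit of neurons, was at 0 counts in every library. The test called 10 of the 23 (43.5%, against 43.7% of all genes tested), 5 higher and 5 lower in cKO, with a median log2 fold change of -0.02 over the list. Both ATPases were called, in opposite directions. Smarca4 (BRG1), the ATPase that PBAF uses, fell from 127 ± 6.80 to 111 ± 6.71 TPM (SD, n = 3; log2FC -0.17, SE 0.054, edgeR adjusted p = 0.0229). Its groups did not overlap in TPM, at 119.4 in WT replicate 3 and 118.6 in cKO replicate 2. In CPM they did, at 244 and 247 in the same libraries. Smarca2 (BRM), its paralog, rose from 7.24 ± 0.471 to 8.02 ± 0.191 TPM (SD, n = 3; log2FC 0.17, SE 0.064, edgeR adjusted p = 0.0456). The Smarca4 call was lost in 4 of 14 alternatives, each of which left out 1 library (WT replicate 1 or 2, or cKO replicate 1 or 3), and the Smarca2 call in 7 of 14. Those were DESeq2 (adjusted p = 0.155), upper quartile factors, no filter on low counts, and fits without WT replicate 1 or 3 or without cKO replicate 1 or 3.

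Among the subunits listed as core, not all of which occur in every form, 4 of 11 tested were called. Smarcc1 (BAF155), a core scaffold, fell from 170 to 125 CPM on average (log2FC -0.44, SE 0.064, edgeR adjusted p = 0.000108), whereas its paralog Smarcc2 (BAF170) rose from 82.4 to 105 CPM (log2FC 0.35, SE 0.047, edgeR adjusted p = 4.6e-05). Smarcd3 (BAF60C) rose by 0.39 (SE 0.080, edgeR adjusted p = 0.00129). These 3 calls held under all 14 alternatives. Smarcd1 (BAF60A) fell by 0.30 (SE 0.094, edgeR adjusted p = 0.0203), a call lost without WT replicate 1 or 3 or without cKO replicate 3, at adjusted p-values of up to 0.0689. Values for Smarcd2, Smarcb1, Smarce1, Actl6a, Bcl7a, Bcl7b and Bcl7c lay between -0.15 and 0.13 and did not pass. Outside the core, Ss18, a subunit of canonical and non-canonical BAF, fell by 0.21 (SE 0.051, edgeR adjusted p = 0.00422) and was called under all 14 alternatives. The non-canonical BAF subunits Bicra and Bicral differed in direction, at 0.48 (SE 0.15, edgeR adjusted p = 0.0172) and -0.29 (SE 0.099, edgeR adjusted p = 0.0305). Both calls were lost with DESeq2 (adjusted p = 0.0885 and 0.0682). The Bicra call was also lost without WT replicate 3 or cKO replicate 2, and the Bicral call without WT replicate 1 or 2 or cKO replicate 3.

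**Figure D4:**
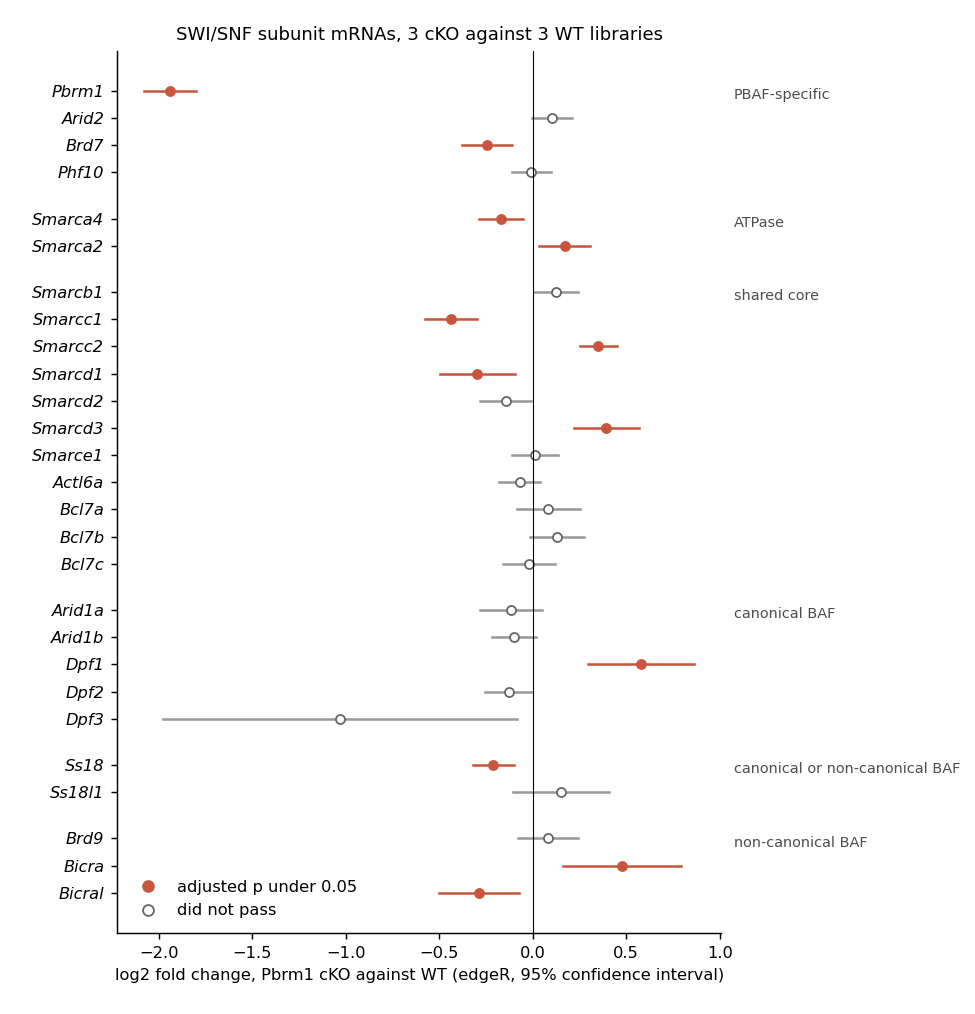
Log2 fold changes of the 4 PBAF-specific subunits and the 23 other SWI/SNF subunits tested, Pbrm1 cKO against WT, with unadjusted 95% confidence intervals from edgeR and filled points for an adjusted p-value under 0.05. Pbrm1 is the lowest at -1.94. Dpf3, which did not pass, is next at -1.03, with a wide interval (-1.98 to -0.09) that overlaps that of Pbrm1 (-2.08 to -1.80). The subunits that passed the test are divided between both sides of 0.

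Genes next to the members were examined within 10 kb on either strand, to see what shares reads or position with them. There were 17, of which 9 were tested and 5 called (55.6%, against 43.7% of all genes tested). Gnl3 (chromosome 14, 31012433 to 31019152, minus strand) encodes nucleostemin, a nucleolar protein, and its start overlaps that of Pbrm1 by 15 bases on the other strand. It was at 160, 162 and 168 CPM in WT against 139, 143 and 140 CPM in cKO, without overlap (log2FC -0.22, SE 0.043, edgeR adjusted p = 0.00107). On the other side of Gnl3, Glt8d1, a glycosyltransferase family gene, was at 18.02, 16.7 and 20.7 CPM in WT and rose to 25.9, 21.4 and 30.0 CPM in cKO (log2FC 0.47, SE 0.11, edgeR adjusted p = 0.00434). Smim4 lies across 33461 bases of the 3′ part of Pbrm1 on the minus strand and was at 5.80 ± 0.490 CPM in WT against 6.34 ± 0.906 CPM in cKO (SD, n = 3; log2FC 0.12, edgeR adjusted p = 0.507). Nt5dc2 was at -0.17 (edgeR adjusted p = 0.0416), a call lost in 6 of 14 alternatives: DESeq2, library size only, and fits without WT replicate 1 or 3 or cKO replicate 1 or 3.

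Beside Arid2, Scaf11, an RNA splicing factor gene, fell from 198 ± 4.99 to 172 ± 8.34 CPM (SD, n = 3; log2FC -0.20, SE 0.048, edgeR adjusted p = 0.00372). Gm25397 lies inside Arid2 on the same strand, shares 92 exon bases with it and was at 0 counts in every library. Reads from those bases cannot be told apart by strand. Beside Brd7, Adcy7, an adenylate cyclase gene on the plus strand that ends 1076 bases from the 3′ end of Brd7, rose from 41.9 ± 2.79 to 52.7 ± 4.48 CPM (SD, n = 3; log2FC 0.33, SE 0.071, edgeR adjusted p = 0.00186), opposite to Brd7. Phf10 shares 14562 bases with 1600012H06Rik on the plus strand, and 470 bases of their exons. That gene was at 36.3 ± 1.95 CPM in WT against 39.7 ± 1.93 CPM in cKO (SD, n = 3; log2FC 0.13, edgeR adjusted p = 0.113). Reads were counted by strand, so that the 2 genes were counted apart. In a search of the members' longest transcripts against the transcripts of all other genes, at 90% identity over 100 bases or more, that antisense overlap was the sole match, over 147 bases. Calls of Gnl3, Glt8d1, Scaf11 and Adcy7 held under all 14 alternatives.

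Finally, the genes whose CPM profile over the 6 libraries was most like that of each member were listed, by the root mean square difference of log2 CPM after centring each gene on its own mean, among 11022 genes with a mean of at least 5 CPM. Nearest to Pbrm1 was Grem1, a secreted antagonist of bone morphogenetic proteins, at a difference of 0.031. Its level was 43.7 ± 2.10 CPM in WT against 11.01 ± 0.851 CPM in cKO (SD, n = 3). Gm2a (difference 0.104) and Mpzl2 (difference 0.108) came next. Nearest to Brd7 were Thrap3 (0.00997), Ccdc93 (0.0104) and Baz2b (0.0132), of which Thrap3 fell from 151 ± 2.65 to 127 ± 7.85 CPM (SD, n = 3). Nearest to Arid2 were Ctu1, Acd and Lpp (0.0191 to 0.0195), and nearest to Phf10 were Klhl22, Dynll1 and Polr2c (0.00857 to 0.0125). These are descriptions over 6 libraries and carry no test.

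**Figure D5:**
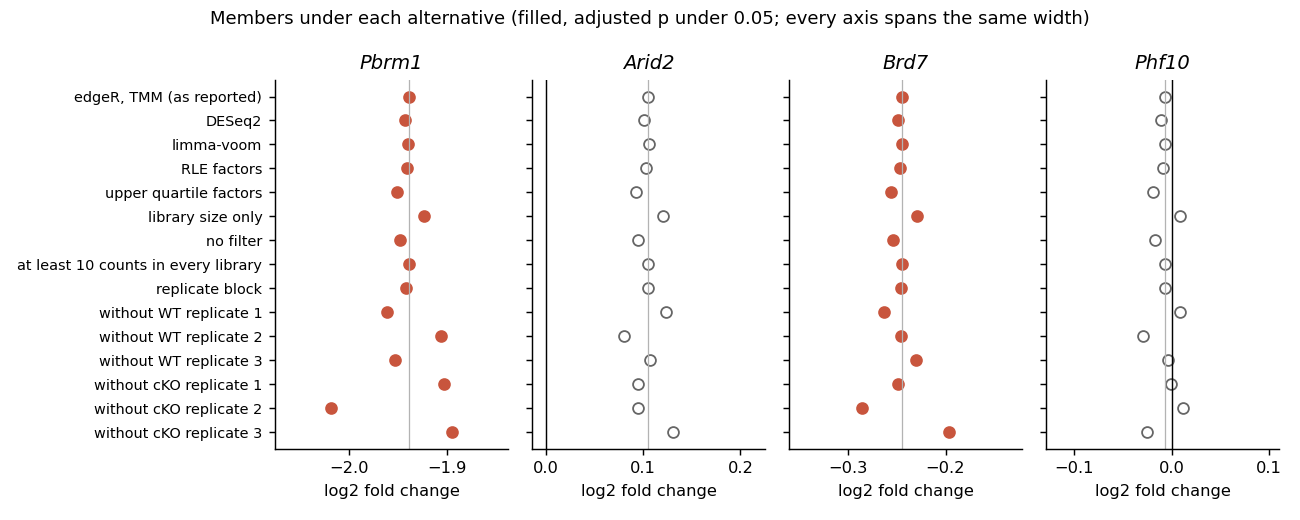
Log2 fold change of each member as reported and under 14 alternatives of test, scaling, filter, block and left-out library, each axis spanning the same width, filled points for an adjusted p-value under 0.05. Pbrm1 and Brd7 stay below 0 and filled throughout, Arid2 stays above 0 and open, and Phf10 falls on both sides of 0.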

How the data were processed

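RNA-seq reads of 6 libraries (3 per group, grouped by the genotype label) were, per the labels, made strand-specific with random and poly(T) priming, trimmed with cutadapt and aligned with HISAT2 to GRCm38.p5. The authors deposited whole-number counts per gene over exons, from featureCounts 1.6.4 in reverse-stranded mode, which skips multi-mapping reads; exon lengths came with them. Members, lists and tests were chosen with earlier results of these data known.

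From the counts, edgeR 4.0.16 (R 4.3.3; two-sided quasi-likelihood test, TMM, filterByExpr) tested all genes, with Benjamini-Hochberg adjustment and a threshold of 0.05. The test was also run on simulated counts. Far fewer genes changed in these than were called here, so that run cannot check the test for shifts this wide. DESeq2 (the tool of the study, here in version 1.42.0), limma-voom (limma 3.58.1), other scalings and filters, a replicate block and leaving out each library were alternatives. TPM were computed from counts and exon length. Ratios were tested by exact permutation (scipy 1.17.1). Sequence copies were searched with BLAST 2.17.0.

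Named were the members; their counterparts; the ATPases; up to 8 called subunits with the largest change; genes within 10 kb; the 3 genes most like each member; and Pgr. Whether replicate numbers pair the libraries is not given, and the main fit used no block.

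Replicates of a group differed by more than sampling noise (chi-square per gene 1.31 to 1.60 over genes with low counts), and each was counted as 1 library.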

Additional observations from a re-analysis of the deposited data

How the results depend on the processing

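Over the 14 alternatives, log2 fold changes ranged from -2.02 to -1.89 for Pbrm1, from 0.08 to 0.13 for Arid2 and from -0.29 to -0.20 for Brd7, all on the same side of the threshold. Phf10, which was not called under any of them, changed sign with library size only (0.00895), without WT replicate 1 (0.00877) and without cKO replicate 2 (0.0116), and ranged from -0.0299 to 0.0116 when libraries were left out. The number of other SWI/SNF subunits called, 10, was 6 without WT replicate 1, 6 to 12 when each library was left out in turn, 7 with DESeq2 and 5 at an adjusted p-value under 0.01. For the log2 ratio of Phf10 to the DPF genes, the difference of cKO from WT ranged from -0.00094 to 0.11 when libraries were left out. Its sign turned without WT replicate 3. Differences of the other ratios among the 4 kept their direction. Over all genes tested, the median lay between -0.0103 and 0.0174 under the scalings tried. From 4665 to 7054 genes were called across the transcriptome. The causes were not tested.

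With the replicate number as a block, the log2 fold change was -1.94 for Pbrm1, 0.10 for Arid2, -0.25 for Brd7 and -0.01 for Phf10, with no change of call, and 6908 genes were called, of which 6617 were among the 6723 called without it. Correlations of same-numbered libraries, after group means were taken off, were -0.0243, 0.0353 and 0.0928. They show no strong shared effect but cannot settle whether the numbers pair the libraries.

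At this depth and replicate spread (biological coefficient of variation 5.32%), the median SE of a log2 fold change was 0.088 over all genes tested; intervals for Arid2 and Phf10 end at 116% and 107% of WT.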

Other observations

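In these cells, 3 pairs of paralogs in the SWI/SNF core moved in opposite directions, a pattern chosen after the values were seen and therefore given with no test. Calls of Smarca4, Smarca2 and Smarcd1 were lost in 4, 7 and 3 of 14 alternatives. Smarcd2, a further paralog of Smarcd1 and Smarcd3, was at a log2 fold change of -0.15 and did not pass the test. The ratio of Smarca4 to Smarca2 was 19.1, 16.7 and 17.04 in WT and 13.3, 14.9 and 13.4 in cKO (TPM). The ratio of Smarcc1 to Smarcc2 was 1.38, 1.57 and 1.44 in WT and 0.845, 0.924 and 0.766 in cKO. Per exon length Smarcc2 was thus above Smarcc1 in cKO, whereas in CPM Smarcc1 stayed above Smarcc2 in all 3 cKO libraries. The ratio of Smarcd1 to Smarcd3 was 2.90, 2.82 and 2.69 in WT and 1.92, 1.97 and 1.33 in cKO. None of these 3 ratios overlapped between the groups, and each was lower in cKO with 1 TPM added and without each library in turn. CPM in place of TPM cannot change the group difference of a ratio of 1 gene to another. As the pairs were picked for their opposite directions, these checks describe the values and are no independent support. Sums of cell type markers also differed between the groups, and their part in these ratios was not tested.

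Among the 3 cKO libraries, replicate 2 lay nearest to the WT mean for 56.6% of the 6723 called genes, against 37.6% of the 8653 tested genes that were not called. It was also the cKO library with the highest Pbrm1 level and, among the 10 called SWI/SNF subunits, the nearest to WT for 7. Brd7 was likewise at its highest in that cKO library, at 43.3 CPM. Arid2, which did not pass the test, was at 79.4 CPM in cKO replicate 1 and, barely farther from the WT mean, at 79.8 CPM in replicate 2. Phf10 was there at its lowest of the cKO group, at 75.8 CPM. Replicate 2 also held the most counts (18947947) and the highest mitochondrial share of the cKO group (7.81%). The part of these differences in the pattern was not tested.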
